A study of Mus musculus with 11 samples.

Results

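Serotonin acts through a family of receptors, nearly all of them G protein-coupled, which are grouped by the pathway they engage. Htr1a, Htr1b, Htr1d and Htr5a couple to inhibitory G proteins that lower cyclic AMP, Htr2a and Htr2c couple to Gq and raise calcium through phospholipase C, and Htr4, Htr6 and Htr7 couple to stimulatory G proteins that raise cyclic AMP. Htr3a is the exception, a subunit of a cation channel opened by serotonin. In the striatum and the nucleus accumbens, its ventral part, serotonin arrives in fibres of the raphe nuclei, and these receptors modulate projection neurons, interneurons and incoming axons.

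The 10 serotonin receptor genes considered here were chosen by name, as the probe sets annotated with that single symbol, and each of the 10 had exactly 1 probe set, among 19938 genes with a single annotated symbol. They were measured on Affymetrix Mouse Gene 1.0 ST arrays in 5 Rarb-null male mice and 6 wild-type (WT) male littermates, 1 array per mouse. The null mice lack Rarb, which encodes retinoic acid receptor beta, and the labels name no promoter or cell type that limits the deletion. Both genotypes were bred by crossing heterozygotes, on a background that mixes C57BL/6J and 129SvEms/j, and were 4 to 5 months old, behaviourally naive and with no treatment named. The tissue was nucleus accumbens enriched in its shell, taken with a 0.5 mm punch from frozen sections. The design asks how expression in this tissue differs when the receptor is missing.

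Values are log2 expression after robust multi-array analysis (RMA), and differences are the Rarb-null mean minus the WT mean with the standard error (SE) that limma gives. Rarb itself read 9.72 to 10.01 in the 5 Rarb-null arrays and 11.70 to 11.81 in the 6 WT arrays, so every array matched its title, although the labels' extraction text swaps the sizes of the groups. Neither the exons removed nor those that the probe set reads are given in the sources used here. The defining genes of striatal projection neurons were strongly present in both genotypes, with Penk at 13.60 ± 0.02 in Rarb-null and 13.66 ± 0.03 in WT arrays (SD, n = 5 and 6). The median of an array over all probe sets lay between 7.08 and 7.11 in Rarb-null and between 7.02 and 7.06 in WT arrays. Over the tested genes it lay between 8.88 and 8.97 in Rarb-null and between 8.96 and 8.998 in WT arrays, with overlap and with the lowest values in Rarb-null arrays. Correlations between arrays ran from 0.989 to 0.997. How precise any value is depends on the number of arrays.

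Htr2c and Htr6 were the receptor genes whose promoter, as 250 bases before an annotated start, held the letters AGGTCA on either strand, the core half-site that retinoic acid receptors bind. RefSeq promoter sequences (GRCm38.p6) were found for 8 of the 10 genes, and Htr3a and Htr4 are named only. The promoters of Htr2c (chrX:146962263-146962512, plus strand) and of Htr6 at the upstream of its 2 annotated starts (chr4:139075571-139075820, minus strand) are shown. That of Htr1b (chr9:81633833-81634082, minus strand), the gene with the largest rise, is shown too. All run 5′ to 3′ up to the base before the start, with matches to AGGTCA or its reverse complement in capitals.
Htr2c: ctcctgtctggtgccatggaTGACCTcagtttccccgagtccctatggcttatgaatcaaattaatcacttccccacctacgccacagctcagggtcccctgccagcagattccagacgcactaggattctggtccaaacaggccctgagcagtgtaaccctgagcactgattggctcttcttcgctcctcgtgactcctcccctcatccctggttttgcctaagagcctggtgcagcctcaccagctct
Htr6: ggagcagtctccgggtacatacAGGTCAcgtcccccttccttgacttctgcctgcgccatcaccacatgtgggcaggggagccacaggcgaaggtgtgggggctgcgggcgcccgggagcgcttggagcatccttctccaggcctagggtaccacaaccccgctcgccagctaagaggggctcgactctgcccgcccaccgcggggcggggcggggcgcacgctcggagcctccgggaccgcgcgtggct
Htr1b: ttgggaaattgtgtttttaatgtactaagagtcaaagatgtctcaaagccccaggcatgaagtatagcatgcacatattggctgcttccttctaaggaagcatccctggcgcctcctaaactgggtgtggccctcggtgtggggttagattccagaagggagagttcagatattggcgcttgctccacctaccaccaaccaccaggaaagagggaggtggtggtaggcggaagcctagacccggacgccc

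The match in Htr2c began 230 bases before the start and that in Htr6 228 bases before it, and the second Htr6 start had a match 103 bases before it. Over windows of 250 bases before to 50 after the start, AGGTCA occurred in 16.3% of 32851 RefSeq promoters and in 3 of the 10 promoter windows of these genes. Direct repeats of such half-sites with 1 to 5 bases between them, allowing G at the first and T at the third position, occurred in 0.7% of promoters and in 0 of these 10 windows. A match describes the letters of the window and not binding.

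The genes lay between the 35.5th (Htr3a) and the 95.6th (Htr2c) percentile of genes on the array. Since probe sets differ in how brightly they bind, levels are placed here against the array and not against each other. Htr2c (95.6th percentile of genes), Htr2a (91.4th) and Htr1b (90.2nd) lay high, Htr4 (79.4th), Htr1d (74.5th), Htr6 (66.4th) and Htr5a (56.2nd) in the middle. Htr3a, at 6.70 over all arrays (35.5th percentile), and Htr7, at 6.82 (37.6th), fell below the filter at the 40th percentile (6.99) and were not tested. Htr1a, at 7.16 (42.6th), lay just above it. As a guide to the level of genes with little or no transcript in brain, 1228 odour, vomeronasal and taste receptor genes had a median of 4.61 and a 95th percentile of 6.32, and 16 of them passed the filter. None of the 10 receptor genes lay under that 95th percentile in both genotypes, but Htr3a and Htr7 exceeded only 97.6% and 98% of those genes and Htr1a 99.1%, so these 3 are too near the low end for a small difference to be judged.

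**Figure D1:**
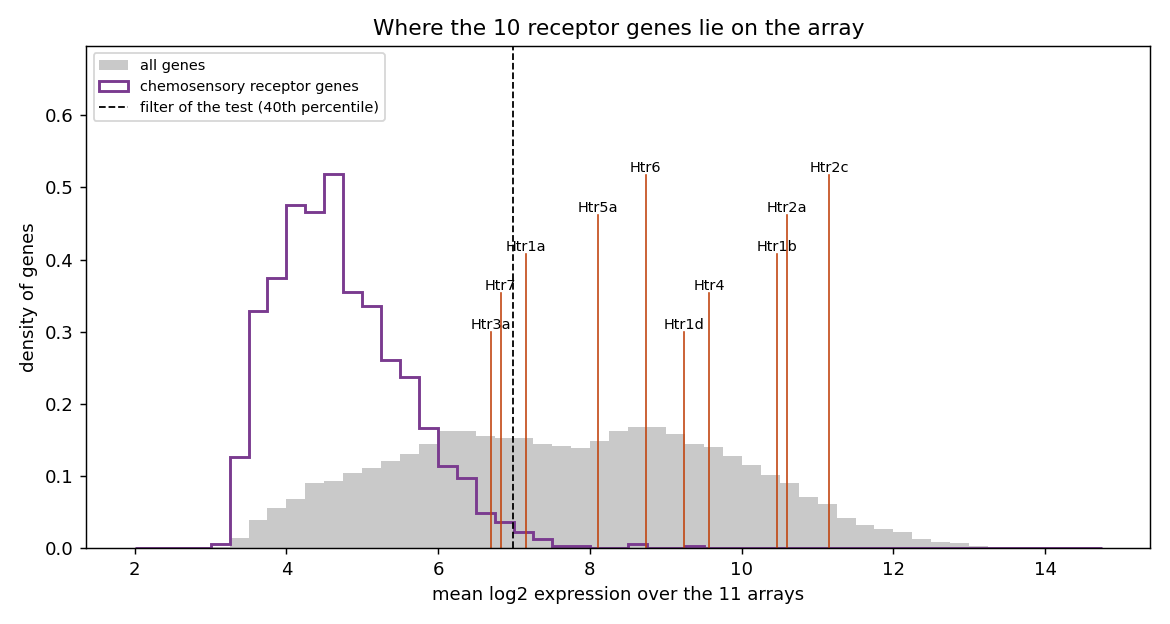
Distribution of the mean log2 expression over the 11 arrays (x axis) as a density of genes (y axis), for all 19938 genes in grey and for 1228 chemosensory receptor genes as the outlined curve, with a line for each of the 10 serotonin receptor genes whose height has no meaning and a dashed line at the filter of 6.99. Htr3a and Htr7 stand left of the filter, Htr1a just right of it, and the other 7 further right, with 99.8% to 100% of the chemosensory genes below each of them.

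Of the 8 receptor genes tested, 3 were higher and 3 lower in Rarb-null arrays at a limma Benjamini-Hochberg adjusted p of 0.05 over all 11963 genes, and 2 did not pass. Htr1b, Htr1d and Htr2c rose; Htr4, Htr2a and Htr6 fell. Over all genes tested, 19.6% were called, 7.56% higher (905 genes) and 12% lower (1436). With arrays centred on the median of their tested genes this split turned to 1677 higher and 939 lower, and that of the receptor genes to 3 higher and 1 lower. The 6 changes were between 1.10-fold and 1.23-fold in either direction. The median size of the difference without its sign was 0.19 over the 8 genes and 0.07 over all genes tested, and the signed medians were 0.10 and -0.02. The genotypes did not overlap in 4 of the 8 genes (Htr1b, Htr1d, Htr4 and Htr6), against 11.2% of all genes tested. In whole tissue a change in the number of cells that carry a receptor and a change in the RNA per cell cannot be told apart.

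**Figure D2:**
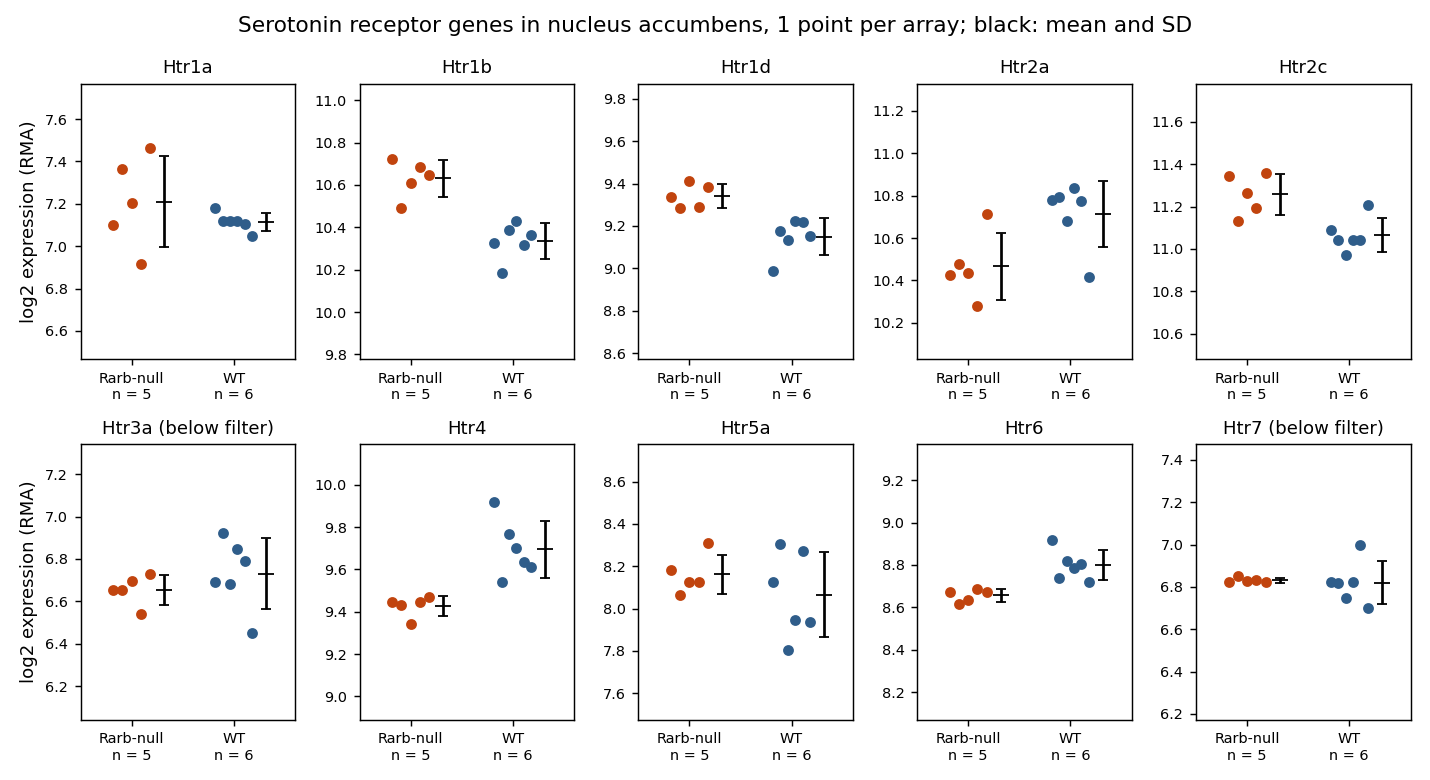
Log2 expression (y axis) of the 10 serotonin receptor genes in each of 5 Rarb-null arrays (left, orange) and 6 WT arrays (right, blue), with the mean and SD in black; every panel spans the same height of 1.3 log2 units. The groups are separate for Htr1b, Htr1d, Htr4 and Htr6, and overlap in 1 or more arrays in the other panels.

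Among the receptors coupled to inhibitory G proteins, Htr1b and Htr1d rose. Htr1b, the terminal receptor that restrains release from serotonin fibres and from the axons of projection neurons, read 10.72, 10.49, 10.61, 10.68 and 10.65 in the Rarb-null arrays, and 10.18, 10.34 and 10.43 as the lowest, median and highest of the WT arrays. Every Rarb-null array lay above every WT array. The difference was 0.30 (SE 0.049), or 1.23-fold, with a limma adjusted p of 0.00111 and a two-sided exact permutation p of 0.00216, the smallest that the 462 splits of the arrays allow. Of the 6 receptor calls it alone passed under all 27 alternatives, which gave 0.26 to 0.41.

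Htr1d, a close relative of Htr1b that also acts on nerve terminals, read 9.33, 9.29, 9.41, 9.29 and 9.39 in the Rarb-null arrays, against 8.99, 9.17 and 9.22 as the lowest, median and highest of the WT arrays. Every Rarb-null array lay above every WT array, by a narrow margin at the closest. The difference was 0.19 (SE 0.044; limma adjusted p = 0.00946; exact permutation p = 0.00216). WT replicate 1 lay well below the other WT arrays, and without it the rise was still called (0.16, limma adjusted p = 0.00997).

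Htr1a, the receptor on serotonin neurons and on many cortical and limbic neurons, read 7.10, 7.36, 7.20, 6.92 and 7.46 in the Rarb-null arrays, against 7.05, 7.12 and 7.18 as the lowest, median and highest of the WT arrays. The Rarb-null arrays lay on both sides of the WT arrays. Their spread was wider (SD 0.21 in Rarb-null against 0.04 in WT arrays), but 3 WT arrays shared 1 value exactly, as happens in 20.9% of the probe sets of these deposited values, which also held for 3 arrays in Htr5a and 4 in Htr7. The difference of 0.10 had a 95% interval of -0.07 to 0.26 (limma adjusted p = 0.398). Htr5a read 8.18, 8.06, 8.13, 8.13 and 8.31 in the Rarb-null arrays, against 7.81, 8.04 and 8.30 as the lowest, median and highest of the WT arrays, and its groups overlapped (0.10, interval -0.09 to 0.28, limma adjusted p = 0.442).

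The Gq-coupled pair moved in opposite directions. Htr2c, a receptor whose RNA is edited and which dampens dopamine signalling in the accumbens, read 11.34, 11.13, 11.26, 11.19 and 11.36 in the Rarb-null arrays, against 10.97, 11.04 and 11.21 as the lowest, median and highest of the WT arrays. WT replicate 6, at the top of its group, lay above 2 Rarb-null arrays, and the other 5 WT arrays lay below all of them. The difference was 0.19 (SE 0.050; limma adjusted p = 0.0179; exact permutation p = 0.0108).

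Htr2a, the target of hallucinogens and of several antipsychotic drugs, read 10.43, 10.48, 10.44, 10.28 and 10.71 in the Rarb-null arrays, against 10.42, 10.78 and 10.83 as the lowest, median and highest of the WT arrays. Rarb-null replicate 5 lay among the WT arrays, and WT replicate 6 among the Rarb-null arrays. The difference of -0.25 (SE 0.081) passed narrowly, with a limma adjusted p of 0.0489 and an exact permutation p of 0.0346. It was no longer called when any array other than WT replicate 6 or Rarb-null replicate 5 was left out (adjusted p 0.0628 to 0.109), nor with arrays centred on the median of their tested genes (-0.21, adjusted p = 0.0844). Without WT replicate 6 it was -0.31 (adjusted p = 0.00783). Htr2a lies on chromosome 14 as Rarb does, with 624 protein-coding genes between them.

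Within each array, Htr2c minus Htr2a ran from 0.65 to 0.92 in the Rarb-null arrays and from 0.21 to 0.79 in the WT arrays. The upper WT value was again that of replicate 6. This difference does not depend on the overall scale of an array. Its shift between genotypes follows from the separate differences of Htr2c and Htr2a and is no further evidence for them.

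Among the receptors coupled to stimulatory G proteins, Htr4 and Htr6 fell. Htr4, which is enriched in striatum and raises cyclic AMP in projection and cholinergic neurons, read 9.44, 9.43, 9.34, 9.45 and 9.47 in the Rarb-null arrays, against 9.54, 9.67 and 9.92 as the lowest, median and highest of the WT arrays. All Rarb-null arrays lay below all WT arrays, and they spread less (SD 0.05 in Rarb-null against 0.13 in WT arrays). The difference was -0.27 (SE 0.058), or 1.20-fold, with a limma adjusted p of 0.00639 and an exact permutation p of 0.00433. Leaving out any 1 array gave -0.30 to -0.22, and all were called.

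Htr6, whose transcript is concentrated in striatal projection neurons, read 8.67, 8.62, 8.63, 8.69 and 8.67 in the Rarb-null arrays, against 8.72, 8.80 and 8.92 as the lowest, median and highest of the WT arrays. All Rarb-null arrays lay below all WT arrays, the closest being Rarb-null replicate 4 and WT replicate 6. The difference of -0.14 (SE 0.037) was the smallest of those called (limma adjusted p = 0.0171; exact permutation p = 0.00433). With arrays centred it was -0.10 with an adjusted p of 0.0501.

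Htr7, the third receptor of this class and below the filter, read 6.82 to 6.85 in the Rarb-null arrays and 6.70 to 7.00 in the WT arrays. The channel subunit gene Htr3a, a marker of certain interneurons and also below the filter, read 6.54 to 6.73 in the Rarb-null arrays and 6.45 to 6.92 in the WT arrays. For both genes the Rarb-null range lay inside the WT range. Their differences were 0.01 and -0.08.

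In the level of cortical projection neuron markers, 4 of the 6 WT arrays lay below all Rarb-null arrays. Their mean over 6 tested genes of 7 on the array (8 listed) ran from 8.59 to 9.24 in Rarb-null and from 7.94 to 8.79 in WT arrays. Slc17a7, the vesicular glutamate transporter gene of cortical neurons, averaged 11.07 ± 0.39 in Rarb-null and 10.17 ± 0.78 in WT arrays (SD, n = 5 and 6), and Tbr1, a cortical transcription factor gene, 9.15 ± 0.50 and 8.21 ± 0.81. Of these 6 genes 2 rose (Emx1 and Fezf2), and the mean of each of the 6 was higher in Rarb-null arrays.

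When the cortical marker level was added as a covariate, 1 of the 6 receptor calls was kept, the rise of Htr1b (0.36, SE 0.061, limma adjusted p = 0.00227). The other 5 kept their direction without passing. Htr1d gave 0.16 (adjusted p = 0.101), Htr2c 0.14 (adjusted p = 0.183), Htr4 -0.20 (adjusted p = 0.0917) and Htr6 -0.12 (adjusted p = 0.126). Htr2a gave -0.34, a larger fall than without the covariate, and just missed the threshold (adjusted p = 0.0508). Htr5a turned to -0.12 (adjusted p = 0.229). Calls over all genes dropped to 1241 with this covariate.

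WT replicates 2 and 5, with cortical levels of 8.79 and 8.62, lay within the Rarb-null range of that level. Htr1b read 10.18 and 10.31 in these 2 arrays, Htr1d 9.18 and 9.22, Htr4 9.54 and 9.63, and Htr6 8.74 and 8.81. As the genotypes do not overlap in these genes, any WT array lies outside their Rarb-null values, whatever its cortical level. Htr2c read 11.04 in both arrays, below all Rarb-null arrays, and Htr2a 10.795 and 10.775, above all of them. For Htr2c every WT array but replicate 6 lies below all Rarb-null arrays. For Htr2a every WT array but replicates 3 and 6 lies above all of them. WT replicates 2 and 5 therefore add little for either gene. Htr5a read 8.30 and 8.27 there, near the highest Rarb-null value. Genes listed for other interneurons also stood apart (10.14 to 10.42 in Rarb-null and 9.67 to 10.02 in WT arrays). Of 7 tested, 5 were called higher, among them Reln and Cck, and Sst and Nos1 were not called. Pvalb (-0.26) and Vip (0.17) lay below the filter and were not tested. With the interneuron marker level as a covariate only Htr1b was called (0.41, adjusted p = 0.0153), in a fit where the covariate itself separates the genotypes.

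**Figure D3:**
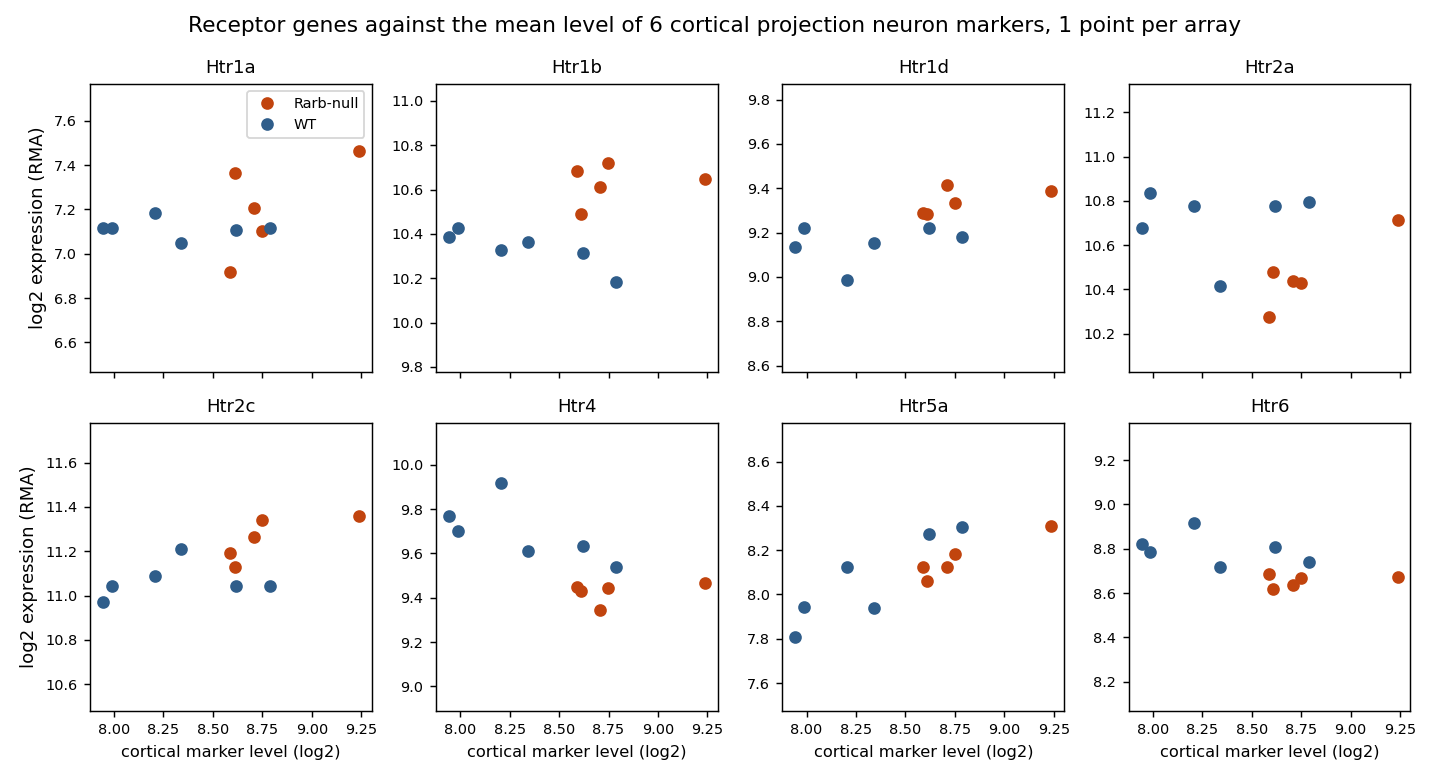
Log2 expression of the 8 tested receptor genes (y axis, 1.3 log2 units per panel) against the mean log2 level of 6 cortical projection neuron markers (x axis), 1 point per array, Rarb-null in orange and WT in blue. The Rarb-null arrays lie at 8.59 to 9.24 on the x axis and WT arrays at 7.94 to 8.79. At 8.59 to 8.79, which both genotypes share, the points of the genotypes are apart for Htr1b, Htr1d, Htr2a, Htr2c, Htr4 and Htr6. For Htr1b, Htr1d, Htr4 and Htr6 this holds at any level, since their genotypes do not overlap. For Htr2c it holds for every WT array but replicate 6. The only WT arrays at 8.59 to 8.79 are replicates 2 and 5. There the points mix for Htr1a, and for Htr5a the WT points lie above the Rarb-null points.

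**Figure D4:**
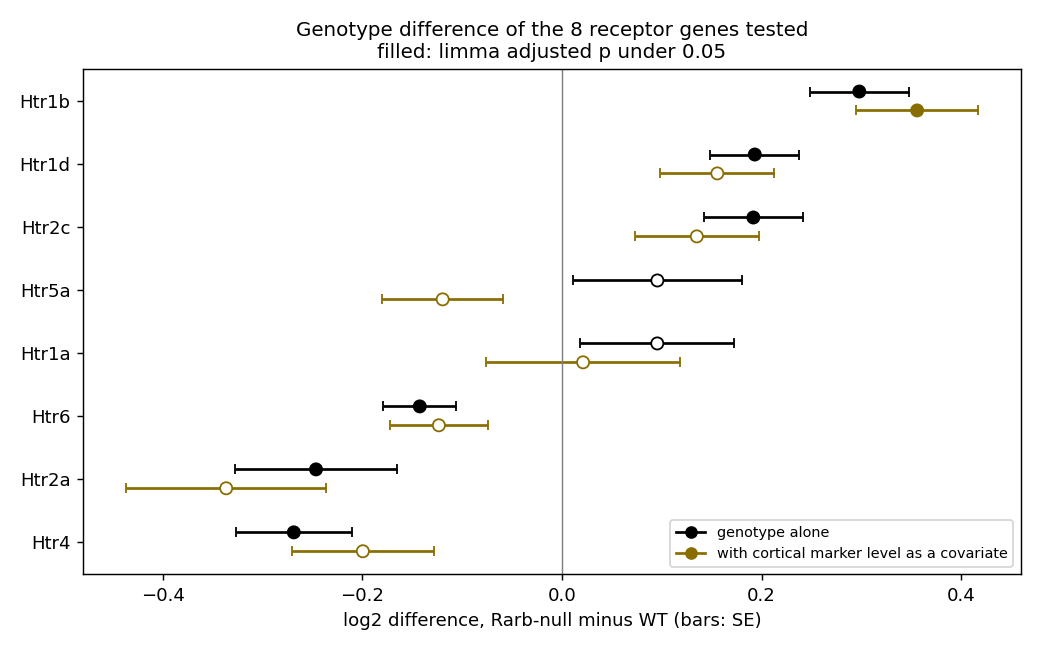
Genotype difference of the 8 tested receptor genes on the log2 scale (x axis, Rarb-null minus WT) with bars of 1 SE, in black for genotype alone and in yellow-brown with the cortical level added as a covariate; filled points passed a limma adjusted p of 0.05. With the covariate, Htr1b at 0.36 is the 1 filled point and Htr5a changes sign to -0.12.

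Defining genes of choroid plexus, which expresses Htr2c strongly, lay low on the arrays. Ttr, which encodes transthyretin, read 5.09 to 5.43 in Rarb-null and 4.79 to 5.22 in WT arrays, at the 13.2nd percentile of genes, and 7 of the 9 listed choroid plexus genes on the array lay below the filter. The 2 that passed, Kl and Clic6, changed in opposite directions (-0.41 and 0.38). Markers of serotonin neurons were at the low end too, with Tph2, the gene of the enzyme that makes serotonin in brain, at the 15.2nd percentile. Of 8 tested projection neuron markers 5 fell, Drd2, Pde10a, Ppp1r1b, Rgs9 and Tac1, and the level of that list ran from 11.81 to 11.93 in Rarb-null and from 12.09 to 12.15 in WT arrays; of 5 tested cholinergic neuron markers 3 fell, Chat, Slc18a3 and Slc5a7. The part of these neuron markers in the falls of Htr4 and Htr6 was not tested. Of 7 tested oligodendrocyte markers 3 fell, Cnp, Mag and Mal, and with their list's level as a covariate Htr4 (-0.25, limma adjusted p = 0.0265) and Htr6 (-0.14, adjusted p = 0.0457) were still called, while Htr2a was not (-0.24, adjusted p = 0.112).

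Other genes of the serotonin system were set beside the receptors. Of the 4 remaining receptor genes, Htr1f, another receptor coupled to inhibitory G proteins, was above the filter and fell (-0.28, SE 0.081, limma adjusted p = 0.028). It read 7.85 to 8.33 in Rarb-null and 8.25 to 8.62 in WT arrays, so the groups overlapped, and leaving out any of 5 arrays (Rarb-null replicates 2, 3 and 4, WT replicates 4 and 5) ended the call (adjusted p 0.0504 to 0.0621), as did the cortical (-0.34, adjusted p = 0.0583), oligodendrocyte (-0.21, adjusted p = 0.11) and interneuron (-0.38, adjusted p = 0.184) marker levels as covariates. Htr2b (5.16 and 5.07), Htr3b (5.94 and 5.80) and Htr5b (6.18 and 6.11 in Rarb-null and WT arrays) lay below both the filter and the 95th percentile of the chemosensory genes.

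Of 11 genes of serotonin synthesis, storage, uptake and breakdown, 9 were on the array with 1 symbol and 4 passed the filter. Maob, the gene of the mitochondrial amine oxidase of glia and serotonin neurons, fell by 0.28 (SE 0.038; limma adjusted p = 0.000223), at 9.08 ± 0.08 in Rarb-null and 9.36 ± 0.04 in WT arrays (SD, n = 5 and 6), with no overlap. Of 6 tested astrocyte markers 2 fell, Aldh1l1 (-0.26, adjusted p = 0.0036) and Gja1 (-0.17, adjusted p = 0.00266), and Gfap rose (0.27, adjusted p = 0.0392). The part of astrocytes in the fall of Maob was not tested. Maoa (-0.10), Ddc (-0.07) and the transporter gene Slc29a4 (0.08) did not pass. The transporter gene Slc6a4, whose transcript is made in the raphe, lay at the 26.9th percentile.

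Of 20 tested genes of receptor coupling and partners, out of 23 listed, 2 rose and 2 fell, a share near the 19.6% of all genes. With arrays centred the counts were 5 and 1. S100a10, which encodes p11, an adaptor that binds the receptors encoded by Htr1b and Htr4 and carries them to the cell surface, rose by 0.40 (SE 0.066; limma adjusted p = 0.00104), at 10.15 ± 0.11 in Rarb-null and 9.75 ± 0.13 in WT arrays (SD, n = 5 and 6). Of these 2 receptor genes, Htr1b rose and Htr4 fell. Gnai1, an inhibitory G protein subunit gene, rose by 0.20 (SE 0.034; limma adjusted p = 0.00145). Plcb1, the phospholipase C gene downstream of Gq, fell by 0.20 (SE 0.035; limma adjusted p = 0.00215), and Adcy5, the main adenylyl cyclase gene of striatum, by 0.11 (SE 0.037; limma adjusted p = 0.0451). The Adcy5 call was lost with the cortical covariate (-0.06, adjusted p = 0.429), without the 3 arrays of extreme cortical level (-0.07, adjusted p = 0.276), with arrays centred (-0.07, adjusted p = 0.175) and on leaving out any of 8 single arrays. With the interneuron covariate none of the 4 was called, at 0.22 for S100a10 (adjusted p = 0.293), 0.18 for Gnai1 (adjusted p = 0.135), -0.15 for Plcb1 (adjusted p = 0.235) and -0.0024 for Adcy5 (adjusted p = 0.988). The Gq subunit gene Gnaq (0.04), the olfactory and striatal stimulatory subunit gene Gnal (-0.07) and the editing enzyme gene Adarb1 (-0.10) did not pass. The groups did not overlap for S100a10, Gnai1, Plcb1 and Adcy5. The median over the 20 genes was -0.01, near the -0.02 of all genes.

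The genes whose deviations from their genotype means ran most closely with those of the called receptors over the 11 arrays were looked up. For Htr1b they were Cog5 (Pearson r = 0.95), Irgq (0.93) and Wfs1 (0.92), of which Wfs1 also rose (0.33). For Htr2c they were Slc16a7 (0.94), AI504432 (0.93) and Rb1cc1 (0.92), for Htr4 Hspa9 (0.93), Dhx29 (0.91) and Sar1a (0.91), and for Htr6 Zfp146 (0.94), Cdc123 (0.94) and Nudt10 (0.92). For Htr1d they were Opa3 (0.97), Neil1 (0.96) and Rab1b (0.91), and for Htr2a Proca1 (0.93), Ptgs2 (0.92) and Phyhipl (0.92). Dhx29 fell (-0.15) and, Wfs1 aside, the other 16 were not called. Each is among the highest of a great many correlations and is given as a description.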

How the data were processed

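RNA from the nucleus accumbens of 11 mice was hybridised to 1 array each. The deposited values are log2 expression after RMA, per the submitters' processing notes and the labels; base 2 was inferred from their range. RMA removes background, puts arrays on a common scale and combines probes into 1 value per probe set, so differences of dim genes are compressed. Its software version, and whether all arrays were normalised together, are not given in the sources used here, and no batch was named. Genotypes were taken from the sample titles.

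Of 35556 probe sets, 21789 had 1 symbol in the platform annotation, 1621 several and 12146 were not in the table; 21698 were matched through Entrez identifiers to RefSeq genes (GRCm38.p6). Each gene was represented by its probe set with the highest mean. Of 19938 genes, 11963 had a mean over the 40th percentile (6.99 on the log2 scale) and were tested with lmFit and eBayes of limma 3.58.1 in R 4.3.3, without covariates and with Benjamini-Hochberg adjustment over all of them, at a threshold of 0.05. Single receptor genes also had a two-sided exact permutation test over 462 splits of the arrays. On simulated data for Rarb-null minus WT over 11963 genes, 50% of changes of 0.2, 80% of 0.3 and 98% of 0.5 on the log2 scale were recovered, with 6 false calls. At each size 50 genes were changed, far fewer in all than the 2341 called in the real arrays, and the adjustment depends on that share. The noise was drawn separately for each gene, so variation that genes share, as from tissue content, was left out. These rates may therefore not hold for the real arrays.

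The receptor genes, the other serotonin genes and the marker lists were chosen with earlier results of these data known. By rule, every receptor gene was named, the called genes of the other serotonin lists (at most 6 a list), and at most 3 defining markers of a cell type. Maoa, Ddc, Slc29a4, Slc6a4, Gnaq, Gnal, Adarb1, Emx1, Fezf2, Sst, Nos1, Pvalb, Vip and the called projection neuron markers were named after their values were seen. For each called receptor gene the 3 most alike genes were taken by Pearson r. The main fit did not pair the arrays by replicate number. In deviations from the genotype means, same-numbered arrays correlated at 0.06 to 0.43, each positive, and 1 of 5 pairs lay under 0.1. These values do not settle whether the numbers pair the arrays, and a fit with the number as a block is given below. Python 3.11.15 with matplotlib 3.10.9 drew the figures.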

Additional observations from a re-analysis of the deposited data

Results flagged for a closer look

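In 34 groups of arrays examined, 3 had 1 array far from the others, and chance alone marks about 1 group in 20. WT replicate 1 read 8.99 for Htr1d, while the other WT arrays read 9.13 to 9.22. WT replicate 6 read 10.42 for Htr2a, while the other WT arrays read 10.68 to 10.83. WT replicate 1 also read 8.62 for Htr1f, while the other WT arrays read 8.25 to 8.39. Without these arrays the calls stood, at 0.16 for Htr1d (limma adjusted p = 0.00997), -0.31 for Htr2a (adjusted p = 0.00783) and -0.23 for Htr1f (adjusted p = 0.0495).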

How the results depend on the processing

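The rise of Htr1b was called under all 27 alternatives (adjusted p 0.000103 to 0.0153). The rise of Htr1d and the fall of Htr4 were called under 25 of 27, Htr2c under 23, Htr6 under 22 and Htr2a under 9, each with its direction kept. Leaving out 1 array in turn gave 5 to 6 receptor genes called, and 1548 (without Rarb-null replicate 3) to 2582 of all genes, with 582 to 1012 higher. With the cortical covariate 1 receptor gene was called higher and 0 lower, with 3 higher and 3 lower at an unadjusted p under 0.05 in limma, and 1241 of all genes, 413 higher and 828 lower. With the 3 arrays of extreme cortical level left out (Rarb-null replicate 5, WT replicates 3 and 4), 3 receptor genes were called, 1 of them lower, and 1342 of all genes, 472 higher and 870 lower. Htr2c, Htr6 and Htr2a were then no longer called (adjusted p 0.139, 0.0831 and 0.0567). Htr2c shrank to 0.137 (SE 0.056) from 0.192 (SE 0.050) in the main fit. Htr6 stayed at -0.144 (SE 0.049) against -0.142 (SE 0.037), and Htr2a was -0.286 (SE 0.085) against -0.246 (SE 0.081). With the other interneuron markers as a covariate, chosen after seeing the data, 1 receptor gene was called higher and 0 lower, with 1 higher and 2 lower at an unadjusted p under 0.05, and 782 of all genes, 219 higher and 563 lower. A threshold of 0.01 left 3 receptor genes, 1 of them lower, and 970 of all genes, 333 higher and 637 lower; 0.1 gave 1363 higher. Centring left 1 receptor gene lower, and gave 1677 of all genes higher and 939 lower. The stricter filter gave 510 higher and the oligodendrocyte covariate 590. Htr5a reversed to -0.12 with the cortical covariate, -0.037 without the 3 arrays and -0.33 with the interneuron covariate, and Htr1a to -0.059 with the last; none of these passed. The cause of these changes was not tested. With the replicate number as a block, which leaves out WT replicate 6, 2870 of all genes and 6 receptor genes were called; 2 of 5 Rarb-null arrays correlated best with their own number. Taking the filter of the test as the limit put 2 receptor genes, Htr3a and Htr7, too low to judge. Of 648 recomputed list counts, 542 stayed within 1.5 times. Signal over background was not measured, which limits what can be said of Htr1a, Htr3a and Htr7.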
